A study of Mus musculus with 6 samples.

Results

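The genes described here are 33 enzymes, transporters and regulators of glycolysis and of the response to low oxygen, chosen by gene symbol. They fill 34 of the 22030 rows of the count table, because Aldoa has 2 identifiers, and all 34 rows had enough counts to be tested. The data are RNA-seq libraries from mouse bone marrow mesenchymal stem cells, marrow stromal progenitors of bone, fat and cartilage cells. The 3 control libraries are titled siNC and have the genotype WT, and the 3 knockdown libraries are titled siRIOK3 and have the genotype RIOK3 knockdown. The titles point to a short interfering RNA, whereas the design text speaks of stable lines made with a lentivirus and also of a knockout, so the agent and the number of clones are not settled. The labels leave out oxygen tension, medium, mouse strain and age. Nothing in the labels states that replicates are separate cultures, and the p-values therefore speak only to the spread between these libraries, which may be technical.

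Glycolysis splits glucose into pyruvate in the cytosol. The upper steps consume ATP to phosphorylate and cleave the sugar, and the lower steps return ATP and NADH. Pyruvate is then reduced to lactate or oxidised in mitochondria. Many of these genes are transcribed under hypoxia-inducible factor (HIF), a dimer whose alpha subunit is hydroxylated by oxygen-dependent enzymes and then degraded. Marrow stroma is a poorly oxygenated tissue, and its mesenchymal cells are known for a strongly glycolytic metabolism. HIF binds the core letters ACGTG or GCGTG, so promoters of genes that follow the HIF pathway are shown first.

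The following 5 windows are the 250 bases upstream of a RefSeq transcription start (build GRCm38.p6), written 5′ to 3′ on the gene's strand. They were chosen to set a lactate enzyme, a lower glycolytic enzyme, a mitophagy receptor, a surface enzyme and the HIF alpha subunit side by side, and from windows that hold ACGTG. Ldha has another RefSeq window, without ACGTG, that is not printed. Capitals mark ACGTG or GCGTG on either strand, where a palindromic CACGTG, the E-box, is read as ACGTG on both strands.
Ldha, chr7:46845554-46845803, plus strand: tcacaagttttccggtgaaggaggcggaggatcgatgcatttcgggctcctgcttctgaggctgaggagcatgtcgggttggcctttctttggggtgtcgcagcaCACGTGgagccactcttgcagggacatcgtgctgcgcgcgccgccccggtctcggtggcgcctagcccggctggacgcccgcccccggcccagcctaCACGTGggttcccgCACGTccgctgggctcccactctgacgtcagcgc
Pgk1, chrX:106186850-106187099, plus strand: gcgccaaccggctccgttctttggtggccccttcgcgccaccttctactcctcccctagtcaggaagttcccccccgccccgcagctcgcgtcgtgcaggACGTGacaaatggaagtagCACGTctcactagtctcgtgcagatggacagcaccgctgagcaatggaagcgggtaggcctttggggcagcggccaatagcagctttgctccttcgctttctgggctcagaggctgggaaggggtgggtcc
Bnip3, chr7:138909507-138909756, minus strand: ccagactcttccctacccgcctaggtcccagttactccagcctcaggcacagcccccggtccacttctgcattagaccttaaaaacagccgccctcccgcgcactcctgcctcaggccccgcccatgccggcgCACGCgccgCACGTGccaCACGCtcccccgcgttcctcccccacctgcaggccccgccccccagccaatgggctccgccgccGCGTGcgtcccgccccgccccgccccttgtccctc
Car9, chr4:43506776-43507025, plus strand: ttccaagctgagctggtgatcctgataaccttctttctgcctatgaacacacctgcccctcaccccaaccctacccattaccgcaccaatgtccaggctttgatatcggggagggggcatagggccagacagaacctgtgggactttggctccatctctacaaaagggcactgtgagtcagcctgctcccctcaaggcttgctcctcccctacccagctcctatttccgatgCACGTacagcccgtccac
Hif1a, chr12:73907617-73907866, plus strand: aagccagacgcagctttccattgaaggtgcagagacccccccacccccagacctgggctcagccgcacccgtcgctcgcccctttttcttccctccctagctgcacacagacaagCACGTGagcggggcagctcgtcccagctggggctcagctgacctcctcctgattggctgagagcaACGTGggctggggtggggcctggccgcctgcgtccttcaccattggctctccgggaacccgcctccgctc

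ACGTG was more frequent in the windows of the set than in those of tested genes, and GCGTG was nearly as frequent in both. A match is a description and not a site of binding. The genes were chosen for roles in glycolysis and the response to low oxygen, so the excess of ACGTG is no separate evidence of HIF control. RefSeq windows were found for 31 of the 33 genes, 47 windows in all, some of which overlap within a gene. ACGTG on either strand was in 46.8% of the 47 windows, in 21.7% of the 12443 windows of tested genes and in 16.6% of all 32851 windows. GCGTG was in 48.9%, 44.9% and 28.2% of the same sets. The median GC content of the windows was 60.4%, 60.0% and 52.4%. ACGTG occurred in a window of 18 of the 31 genes. The printed Ldha window holds 5 matches to ACGTG, Hif1a 3, Bnip3 and Pgk1 2 each and Car9 1. Among these 5 genes, Ldha, Bnip3 and Car9 mRNA was higher in the knockdown, Pgk1 was not past the threshold and Hif1a was lower, with values given below.

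Library totals lay between 28327612 and 32569544 counts. Riok3, the targeted kinase gene, had 4022 to 5365 counts in the controls and 1034 to 1155 in the knockdown libraries. Control replicate 2 stood apart, with rank correlations of 0.963 to 0.968 across genes with the other controls, which had 0.996 with each other. Fold changes over the whole table rose with the GC content of the transcript (Spearman 0.7 over 13043 genes), from a median of −1.97 on the log2 scale in the GC-poorest decile of genes to 0.64 in the richest. Of a stromal marker list, 17 of 18 genes were tested, of which 6 were called higher and 7 lower. Over all tested genes 21.1% and 26.8% were. With the trend on GC content removed, 5 were higher and 5 lower, where 16.4% and 15.2% of all genes were. The summed level of the list was 3140 to 4207 CPM (counts relative to the TMM-scaled library size) in the controls and 2473 to 2737 in the knockdown. A macrophage list of 11 measured genes summed to 27.3 to 43.6 CPM in the controls and 46.9 to 51.9 in the knockdown, without overlap. Of these genes only 2 had enough counts to be tested, and neither was called. Another 3, Ptprc and Tyrobp among them, had no more than 3 counts in any library. Measured endothelial markers summed to 7.15 to 10.7 CPM and 10.9 to 12.8, and neutrophil, erythroid and lymphoid markers stayed under 1 CPM in sum. Whether shifts among cell types contribute to the values below was not tested, and in bulk RNA fewer cells of a type and less RNA per cell cannot be told apart.

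Knockdown cells carried more mRNA of most enzymes of the upper glycolytic pathway, of lactate dehydrogenase A and of several hypoxia-responsive genes, and less mRNA of Hif1a and of the mitophagy receptor Bnip3l. When each library's trend on GC content was removed, both lower calls ended (Hif1a −0.82, Bnip3l 0.38) and 6 of the higher calls ended, those of Hk1, Gpi1, Aldoa, Eno1, Pkm and Pfkfb4. With transcript length also removed, Hif1a was lower again (−0.72) and Bnip3l was called higher (0.33). By edgeR's quasi-likelihood test at a Benjamini-Hochberg adjusted p under 0.05, 18 of the 34 rows were higher in the knockdown, where 21.1% of all 13067 tested genes were higher. A further 2 rows were lower, where 26.8% of tested genes were lower. The median log2 fold change of the rows was 0.75, compared with 0.01 over all tested genes. The range of the 3 knockdown CPM values lay wholly above that of the controls in 24 rows and wholly below it in 2, which held for 30.8% and 31.3% of tested genes. Without control replicate 2, 29 rows were higher and 2 lower, with 35.1% and 36.5% of tested genes called in those directions. With libraries scaled by their totals alone the median of all genes moved to 0.26 and that of the set to 0.999.

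**Figure D1:**
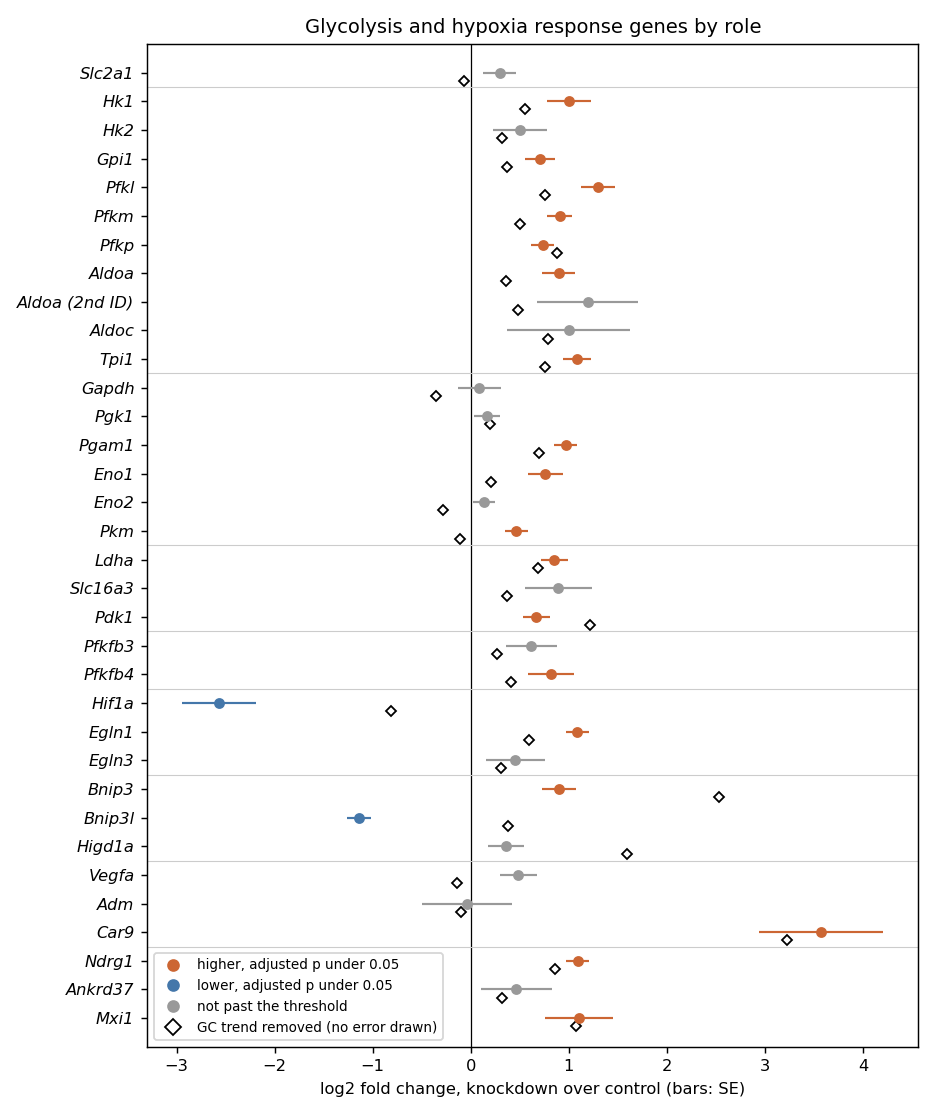
Log2 fold change of each row, knockdown over control, with bars of 1 standard error from the edgeR fit and 3 libraries per group, ordered by role in the pathway. Car9 lies at 3.57 and Hif1a at −2.57, and 18 rows are past the threshold upwards and 2 downwards.

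The enzymes and transporters of glycolysis moved in a single direction among those called. Of 20 rows, 12 were higher and 0 lower by edgeR, where 21.1% and 26.8% of all tested genes were. Their median log2 fold change was 0.81. At an unadjusted p under 0.05 the rows were 13 and 0, and DESeq2 called 13 and 0, where it called 17.5% of its tested genes higher and 23.1% lower. By position, 7 of the 10 rows of the upper pathway, from hexokinase to triose phosphate isomerase, were higher (median 0.95), as were 3 of the 6 rows of the lower pathway (median 0.32). With the GC trend removed, 4 rows of the upper pathway (median 0.53) and 1 of the lower (median 0.04) were higher, where 16.4% of all genes were. The upper and the lower pathway were not tested against each other.

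Slc2a1, which encodes the glucose transporter GLUT1, had 93.5, 141 and 106 CPM in the controls and 139.5, 139.4 and 139.4 in the knockdown. Control replicate 2 lay above all 3 knockdown libraries, so the groups overlapped (log2 fold change 0.30, adjusted p = 0.189). Hexokinases trap glucose by phosphorylation. Hk1, whose product sits on the outer mitochondrial membrane, rose from 52.7, 30.0 and 51.7 CPM to 92.9, 91.6 and 84.5, a log2 fold change of 1.0 (SE 0.224, edgeR adjusted p = 0.00953). All knockdown values were above the highest control. Hk2, the hexokinase most tied to HIF, had 131, 61.7 and 130 CPM in the controls and 153, 149 and 154 in the knockdown. The groups did not overlap, but the low control replicate 2 widened the spread, and the change of 0.50 did not pass the test (adjusted p = 0.176).

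Gpi1, the isomerase of glucose phosphate, rose from 402 ± 69.9 to 657 ± 7.61 CPM (SD, n = 3 each), with a log2 fold change of 0.71 (adjusted p = 0.00794). Phosphofructokinase commits the sugar to glycolysis, and the genes of all 3 of its subunits rose. Pfkl, the liver-type subunit, had 52.7, 80.6 and 62.4 CPM in the controls and 157, 170.2 and 155 in the knockdown. Its knockdown libraries were close together and far above every control, and its log2 fold change of 1.30 (SE 0.176, adjusted p = 0.00116) was the largest among the glycolytic enzymes in this fit. With the GC trend removed, however, Pdk1 (1.22), Pfkp (0.88), Aldoc (0.79, not called) and Tpi1 (0.76) were above Pfkl (0.75). Without control replicate 2, Aldoc (1.91) was above Pfkl (1.48). Pfkm, the muscle-type subunit, rose from 20.9 ± 2.05 to 39.2 ± 1.41 CPM (0.91, adjusted p = 0.0014). Pfkp, the platelet-type subunit, had 20.3, 21.5 and 20.3 CPM in the controls and 34.8, 34.1 and 34.4 in the knockdown (0.73, SE 0.116, adjusted p = 0.00209). Both groups were tight and did not overlap. Exons of Pfkp share 748 bases with Pitrm1 on the opposite strand, which fell (log2 fold change −1.09, adjusted p = 0.000587), and the strand setting of the counting is not given.

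Aldolase cleaves fructose bisphosphate, and triose phosphate isomerase interconverts the products. Aldoa (ENSMUSG00000030695.17) had 872, 1271 and 995 CPM in the controls and 1984, 1997 and 1859 in the knockdown. The lowest knockdown library was well above the highest control (0.90, SE 0.166, edgeR adjusted p = 0.00431). The other Aldoa identifier (ENSMUSG00000114515.3) held 0.44 ± 0.289 CPM in the controls and 1.02 ± 0.0742 in the knockdown and was not called (adjusted p = 0.0941). Reads may have been split between the 2 identifiers. Aldoc, the brain-type aldolase, was close to the limit of detection, at 0.0671 to 0.575 CPM in the controls and 0.421 to 0.684 in the knockdown (adjusted p = 0.226). Tpi1 rose from 282, 377 and 334 CPM to 705, 725 and 679, with no overlap (1.09, SE 0.143, adjusted p = 0.000976).

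In the lower pathway, the changes were uneven from step to step. Gapdh, the first oxidising step and a common reference gene, had 192, 315 and 183 CPM in the controls and 241, 242 and 249 in the knockdown. Control replicate 2 was above and the other controls below all knockdown libraries, and the log2 fold change was 0.08 (adjusted p = 0.772). Pgk1, the first ATP-forming enzyme, was at 318, 394 and 329 CPM and then 380.5, 383 and 404, again with overlap through control replicate 2 (0.17, adjusted p = 0.327). Pgam1, the mutase that follows, had 111, 108 and 125 CPM in the controls and 230.1, 226 and 217 in the knockdown. The groups were far apart (0.97, SE 0.119, adjusted p = 0.000724).

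Enolase makes phosphoenolpyruvate. Eno1, its widely expressed form, rose from 462, 713 and 543 CPM to 954, 924 and 1034 (0.76, SE 0.180, edgeR adjusted p = 0.0116), without overlap. Its call was lost without knockdown replicate 3 (0.72, adjusted p = 0.0514). Eno2, the neuronal form, had 88.3 ± 2.10 CPM in the controls and 96.9 ± 3.13 in the knockdown (0.13, adjusted p = 0.348). Pkm, pyruvate kinase, rose from 1489, 1598 and 1575 CPM to 2133, 2184 and 2115 (0.46, SE 0.115, adjusted p = 0.0136). The Pkm groups were well separated, but its adjusted p was 0.0648, 0.0729 and 0.0547 without knockdown replicates 1, 2 and 3.

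At the branch after pyruvate, Ldha, which reduces pyruvate to lactate, had 227, 289 and 236 CPM in the controls and 455, 445 and 456 in the knockdown. Every knockdown library lay above every control (0.85, SE 0.136, edgeR adjusted p = 0.00217). Pdk1, the kinase that switches off pyruvate dehydrogenase, rose from 12.4, 10.8 and 12.3 CPM to 17.2, 20.6 and 18.6 (0.67, SE 0.139, adjusted p = 0.00658). The Pdk1 values were low but did not overlap. Slc16a3, the lactate exporter MCT4, had 4.30, 9.99 and 4.35 CPM in the controls and 11.7, 12.8 and 10.1 in the knockdown. Its lowest knockdown library was just above control replicate 2, and 0.89 did not pass (adjusted p = 0.066). Without control replicate 2 it was 1.42 (adjusted p = 1.65e-07).

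The bifunctional enzymes Pfkfb3 and Pfkfb4 set the level of the fructose bisphosphate that activates phosphofructokinase. Pfkfb3 had 9.48 ± 3.24 CPM in the controls and 14.6 ± 0.917 in the knockdown (0.62, edgeR adjusted p = 0.0901). Pfkfb4 rose from 2.69, 1.98 and 2.93 CPM to 3.51, 4.69 and 5.25 (0.82, SE 0.236, adjusted p = 0.0248). Its groups did not overlap, but its call was lost without control replicate 1 (adjusted p = 0.0561), knockdown replicate 2 (0.0797) or knockdown replicate 3 (0.0877).

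Levels of different genes can be set side by side only per length, as in the authors' FPKM (library-scaled counts divided by gene length). In the controls Aldoa was at 317 ± 58.3 FPKM, Pkm at 274 ± 12.2, Pgk1 at 136 ± 14.4, Tpi1 at 106 ± 14.8, Eno1 at 93.7 ± 19.96 and Ldha at 66.7 ± 8.09. Aldoa and Pkm overlapped in range in the controls, with Aldoa between 262 and 378 and Pkm between 261 and 285. In the knockdown Aldoa stood at 714 ± 24.6, Pkm at 458 ± 7.89, Tpi1 at 272 ± 8.33, Eno1 at 193 ± 12.2, Pgk1 at 185 ± 7.23 and Ldha at 146 ± 2.14. In the knockdown, Aldoa and Pkm no longer overlapped, and Tpi1 stood above Pgk1, the reverse of their order in the controls. FPKM divides by the library total without the TMM scaling used for CPM, which moves its knockdown values up relative to the fit. Gapdh, at 48.9 ± 14.9 and 63.0 ± 1.51 FPKM, was below all 6 of these enzymes in group means. Named processed pseudogenes held at most 0.871% of the counts of a member (Gapdh), and how the counting treated reads shared with such copies is not given.

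**Figure D2:**
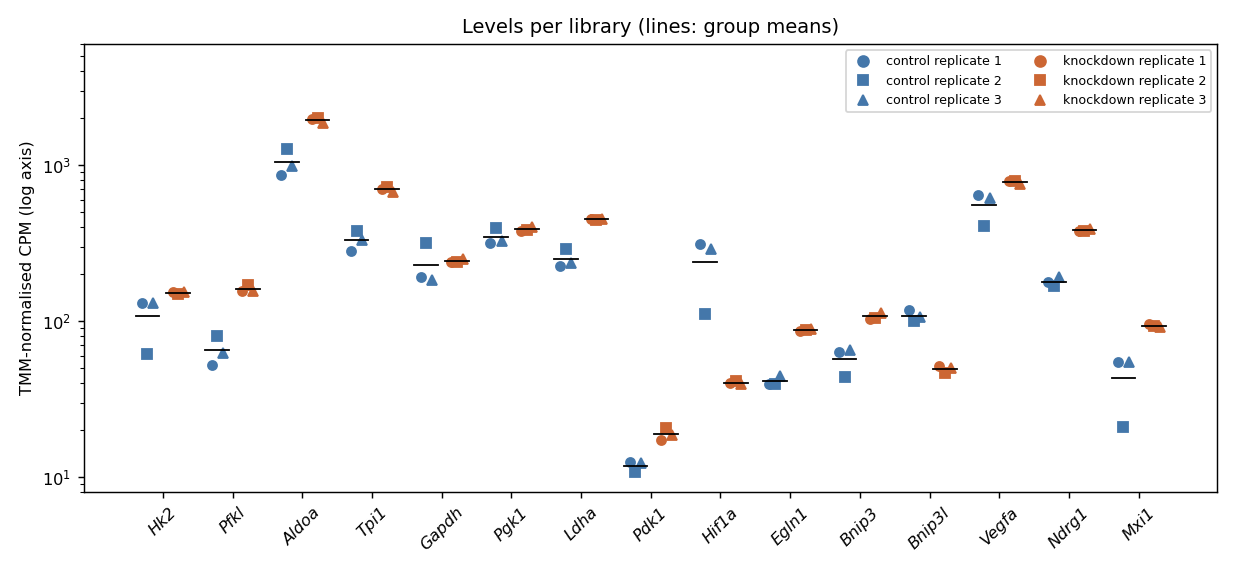
CPM of 15 genes in each library on a log axis, with points for the 3 control and the 3 knockdown libraries and lines at the group means. Control replicate 2 departs from the other controls for Hif1a, Hk2, Mxi1 and Gapdh, while the knockdown libraries lie close together.

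Of 12 rows of hypoxia-response genes, 5 were higher and 2 lower, with a median of 0.47, where 21.1% and 26.8% of all tested genes were called. After removal of the GC trend, 6 were higher and 0 lower by edgeR, where 16.4% and 15.2% of all genes were. Hif1a encodes the oxygen-regulated alpha subunit of HIF, which is controlled mostly at the level of its protein. Hif1a had 315, 111 and 290.2 CPM in the controls and 39.9, 41.2 and 39.7 in the knockdown. All 3 knockdown libraries were low and alike, and control replicate 2 was the lowest control but still above them. Its mRNA was 5.93-fold lower in the means (log2 fold change −2.57, SE 0.374, edgeR adjusted p = 0.00157). With the GC trend removed the value was −0.82 and no longer called (adjusted p = 0.0594), and without control replicate 2 it was −2.91. With both changes together, a setting chosen after seeing the data, Hif1a was called lower (−1.08, edgeR adjusted p = 5.49e-12).

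Prolyl hydroxylases mark the HIF alpha subunit for degradation, and the genes of 2 of them, Egln1 and Egln3, are HIF targets. Egln1 (PHD2) rose from 39.8, 39.9 and 44.4 CPM to 86.2, 87.7 and 89.4, with both groups tight and far apart (1.09, SE 0.117, edgeR adjusted p = 0.000415). Egln3 (PHD3) was at 1.34, 1.08 and 0.741 CPM in the controls and 1.43, 1.71 and 1.19 in the knockdown. Those groups overlapped (0.45, adjusted p = 0.244).

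Bnip3 and Bnip3l are paralogous receptors of the outer mitochondrial membrane that recruit mitochondria to autophagy. Bnip3 was higher and Bnip3l lower in the knockdown, but with the GC trend removed both log2 fold changes were positive, at 2.53 and 0.38. Bnip3 had 63.3, 43.6 and 65.7 CPM in the controls and 104, 106 and 113 in the knockdown (0.90, SE 0.177, edgeR adjusted p = 0.00562). Bnip3l (NIX) had 119, 101 and 107 CPM in the controls and 51.7, 46.7 and 49.9 in the knockdown (−1.14, SE 0.125, adjusted p = 0.000438). Neither gene's groups overlapped. Higd1a, a small protein of the inner mitochondrial membrane, had 20.6, 28.3 and 17.99 CPM in the controls and 28.1, 28.8 and 28.9 in the knockdown. Control replicate 2 reached the knockdown range (0.36, adjusted p = 0.149).

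Among secreted and surface products, Vegfa, the main angiogenic factor, had 649, 409 and 617 CPM in the controls and 796, 788 and 758 in the knockdown. The groups did not overlap, but 0.48 missed the threshold (edgeR adjusted p = 0.0705). Adm, the vasodilator peptide adrenomedullin, was at 0.442 ± 0.196 and 0.432 ± 0.129 CPM (−0.03, adjusted p = 0.955). Car9, a carbonic anhydrase of the cell surface and a classical marker of hypoxia, had 3, 0 and 3 counts in the controls and 37, 26 and 20 in the knockdown. That is 6 against 83 counts, a ratio of 12.5 with an exact 95% interval of 5.51 to 35.1 that covers counting error only. The fitted log2 fold change of 3.57 (SE 0.637, adjusted p = 0.0037) rests on these few control counts, and even the knockdown level was only 0.858 ± 0.262 CPM. Car9 passed the filter on low counts only through the knockdown libraries, where it is high, so its call is not independent of that filter. Gm12454, which lies opposite Car9 and shares exon bases with it, held 181 counts in all libraries and was not called (0.51, adjusted p = 0.274).

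Ndrg1, a stress-responsive gene and a widely used hypoxia target, had 178, 168 and 193 CPM in the controls and 377, 377 and 393 in the knockdown. The groups were tight and far apart (1.09, SE 0.117, edgeR adjusted p = 0.000396). Mxi1, a MYC antagonist of the MAX network, rose from 54.7, 21.0 and 54.8 CPM to 96.0, 93.2 and 91.4. Its groups did not overlap, but with control replicate 2 low the SE was 0.342 (1.10, adjusted p = 0.0331). Its call was lost without knockdown replicate 1, 2 or 3 (adjusted p = 0.0871, 0.0807 and 0.079). Ankrd37, an ankyrin-repeat gene with a HIF-responsive promoter, had 2.45, 5.54 and 2.19 CPM in the controls and 5.19, 4.30 and 4.54 in the knockdown. Control replicate 2 lay above the knockdown range (0.47, adjusted p = 0.319).

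Control replicate 2 did not shift the set in a single direction. It was the highest of the controls in 17 rows, the lowest in 15 and between the others in 2. Relative to the mean of the other controls its log2 CPM differed by −1.44 for Hif1a, −1.38 for Mxi1 and −1.08 for Hk2, and by 1.22 for Ankrd37, 1.19 for Slc16a3 and 0.75 for Gapdh. Over 13043 genes these deviations had a Spearman correlation of −0.58 with transcript length, and over the 34 rows −0.13. Without control replicate 2, 11 further rows were higher, while higher calls over all tested genes went from 21.1% to 35.1%. Among the 11 were Gapdh (0.38, edgeR adjusted p = 2.75e-05), Slc2a1 (0.48, adjusted p = 1.01e-05), Hk2 (0.22, adjusted p = 0.00371), Vegfa (0.30, adjusted p = 0.000257), Higd1a (0.57, adjusted p = 2.48e-05) and Ankrd37 (1.01, adjusted p = 0.000162). With the GC trend also removed, Gapdh (−0.06) and Hk2 (0.06) were not called and Vegfa was called lower (−0.33). Slc2a1 (0.13), Higd1a (1.97) and Ankrd37 (0.93) were still called higher there.

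The transcripts of the set had a median GC content of 53.5%, compared with 50.4% over all tested genes. When each library's trend on GC content was fitted and removed, 13 rows were higher and 0 lower by edgeR, where 16.4% and 15.2% of 13043 genes were. At an unadjusted p under 0.05 these were 15 and 2 rows. The median of the set was then 0.40, with 0.03 over all genes. Higher in both fits were 12 rows: Pfkl, Pfkm, Pfkp, Tpi1, Pgam1, Ldha, Pdk1, Egln1, Bnip3, Car9, Ndrg1 and Mxi1. Of these, Car9 was tested only because of its knockdown counts. Below the threshold after the correction were Hk1 (0.56, adjusted p = 0.097), Gpi1 (0.37, adjusted p = 0.120), Aldoa (0.36, adjusted p = 0.133), Eno1 (0.20, adjusted p = 0.413), Pkm (−0.11, adjusted p = 0.519) and Pfkfb4 (0.41, adjusted p = 0.218). Among the 20 rows of glycolytic enzymes and transporters, 7 then stayed higher and 0 were lower, with 1 lower at an unadjusted p under 0.05.

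The transcripts of Hif1a, Bnip3, Bnip3l, Higd1a and Pdk1, 5 members in all, have under 47% GC, and the values of the first 4 moved most of all rows under the correction. Hif1a (41.3% GC) went from −2.57 to −0.82 (edgeR adjusted p = 0.0594), and with transcript length also removed it was lower again (−0.72). Bnip3l (42.0% GC) went from −1.14 to 0.38 (adjusted p = 0.0516), a change of direction. With length also removed, Bnip3l was called higher (0.33, edgeR adjusted p = 0.0373). Bnip3 (41.6% GC) went from 0.90 to 2.53 (adjusted p = 0.000169), Higd1a (43.0% GC) from 0.36 to 1.60 (adjusted p = 0.00537) and Pdk1 (46.4% GC) from 0.67 to 1.22 (adjusted p = 0.000847). Bnip3 and Bnip3l have transcripts of nearly equal GC content, and Bnip3 had the higher fold change in both fits. A composition effect of library preparation and regulation that follows GC content cannot be told apart here.

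**Figure D3:**
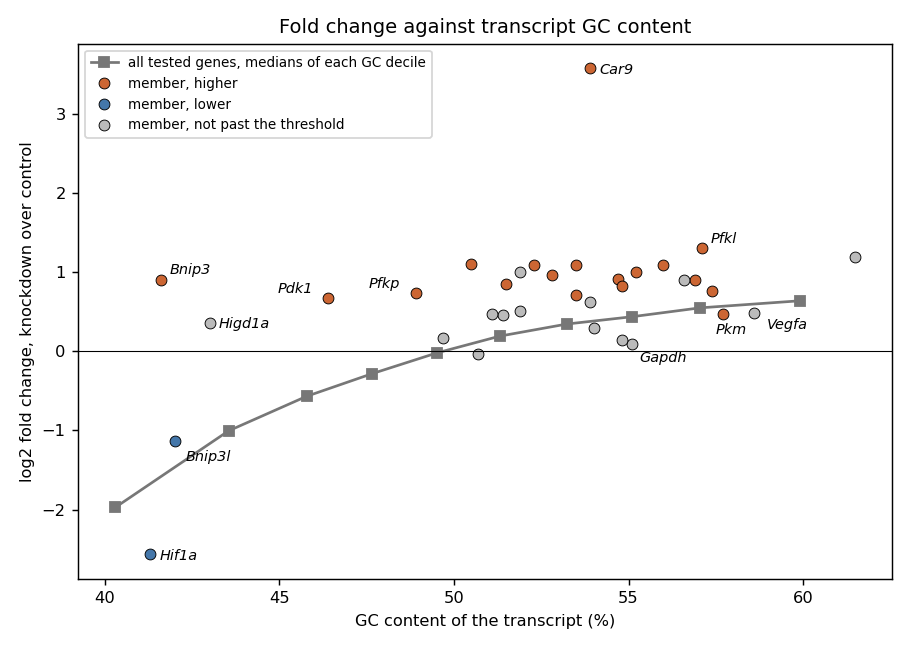
Log2 fold change, knockdown over control, against the GC content of the transcript for the 34 rows, with squares at the median GC content and median fold change of each GC decile of all tested genes. Bnip3 (0.90) and Bnip3l (−1.14) lie at nearly the same GC content on opposite sides of zero, and most members lie above the line of medians.

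Ratios of related genes within a library do not depend on the scaling of libraries, but they do depend on the GC trend where the transcripts differ in GC content. In FPKM, Bnip3 over Bnip3l was 0.909, 0.736 and 1.05 in the controls and 3.42, 3.85 and 3.86 in the knockdown, from near parity to a clear excess of Bnip3. Hk2 over Hk1 was 3.56, 2.94 and 3.60 and then 2.36, 2.33 and 2.62. Hexokinase mRNA was thus less weighted to Hk2 in the knockdown, with Hk2 the larger in every library.

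Pfkl made up 51.3, 58.5 and 55.9% of the summed FPKM of the 3 phosphofructokinase genes in the controls and 61.8, 63.6 and 62.7% in the knockdown. Pfkl over Pfkm was 1.32, 1.73 and 1.60 and then 1.97, 2.11 and 2.06, and Pfkl over Pfkp was 5.24, 7.53 and 6.17 and then 9.03, 10.02 and 9.05. The liver-type subunit was the most abundant form in every library. Eno1 over Eno2 was 4.59, 6.89 and 5.50 and then 8.53, 8.14 and 9.69. Ldha over Ldhb, the subunit that favours lactate oxidation, was 4.49, 4.58 and 4.21 and then 5.82, 5.22 and 5.57. Slc16a3 over Slc16a1, the lactate carrier MCT1, was 0.0369, 0.0782 and 0.0423 and then 0.156, 0.155 and 0.118, so Slc16a1 exceeded Slc16a3 in every library. None of these 7 ratios overlapped between groups, where the CPM of 62.1% of single tested genes did not overlap. No such share was computed for ratios. Pairs whose second gene was under 0.5 FPKM in a library were left out: Aldoa over Aldoc, Pfkfb3 over Pfkfb4, Egln1 over Egln3, Slc2a1 over Slc2a3 and Hif1a over Epas1. With the GC trend removed, the difference between the log2 fold changes of the genes of a pair turned from 0.57 to −0.12 for Pfkl and Pfkp and from 1.41 to −0.39 for Slc16a3 and Slc16a1. The other 5 pairs kept their direction, with Bnip3 and Bnip3l at 2.04 and then 2.15, and Hk2 and Hk1 at −0.50 and then −0.24. Each of the 7 ratios gave p = 0.1 in a two-sided exact permutation test, also after adjustment over the 7. That is the smallest value that 3 against 3 libraries allow. Any ratio without overlap gives it, so the test adds nothing to the lack of overlap.

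**Figure D4:**
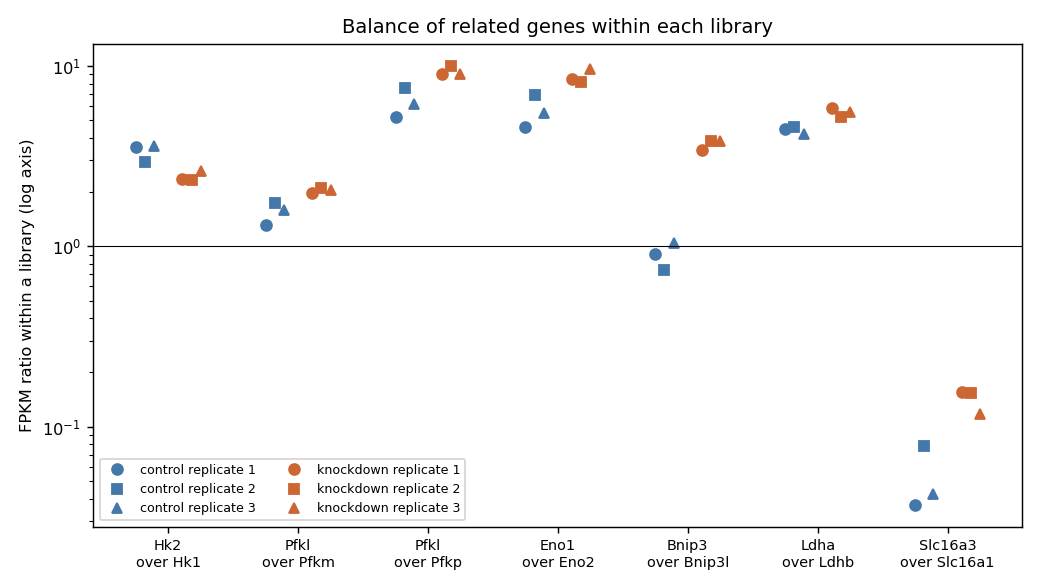
FPKM ratios of 7 pairs of related genes in each library, on a log axis, with the 3 control and the 3 knockdown libraries apart. The groups do not overlap in any pair shown, where the CPM of 62.1% of single tested genes did not overlap, and Bnip3 over Bnip3l shows the widest gap.

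Genes around the pathway, from lists that do not contain the set, changed in both directions. The counts below stand against 21.1% higher and 26.8% lower over all tested genes. Of 15 tested other glycolytic genes 5 were higher and 1 lower (median 0.36). Pdk2, another kinase of pyruvate dehydrogenase, rose from 2.48 to 8.08 CPM in the means (1.70, edgeR adjusted p = 0.00183), and Bsg, the chaperone of lactate carriers, from 457 to 861 (0.91, adjusted p = 0.00309). Slc2a8, a glucose transporter, rose by 1.07 (adjusted p = 0.00306) and Ldhb by 0.53 (adjusted p = 0.0152). With the GC trend removed Pdk2 was still higher (1.16), whereas Bsg (0.34), Slc2a8 (0.37) and Ldhb (0.24) were not called. Slc16a1 fell by 0.51 (adjusted p = 0.0172), but with the GC trend removed it was higher (0.76). Pyruvate dehydrogenase and its carrier had 10 tested genes, of which 0 were higher by edgeR (0 at an unadjusted p under 0.05, 0 by DESeq2) and 3 lower: Dld, the dihydrolipoamide dehydrogenase subunit (−2.68, adjusted p = 2.05e-05), Pdp1, the phosphatase that reactivates the complex (−1.90), and Pdha1 (−0.50). With the GC trend removed, 1 was higher and 2 lower, where 16.4% and 15.2% of all genes were. Dld was then still lower (−0.84) and Pdha1 was not called (0.21). The median of the 10 genes went from −0.26 to 0.25.

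Of 8 pentose phosphate genes 3 were higher and 1 lower, with shares of 21.1% and 26.8% over all tested genes. Rpe, the epimerase of ribulose phosphate, was at −2.63 and H6pd at 1.07. Rpe fell short of a call after removal of the GC trend, at −0.43 (edgeR adjusted p = 0.0935), while H6pd stayed higher (0.52). Of 10 tested genes of glycogen and gluconeogenesis 4 were higher and 3 lower. Pgm1, which links glycogen to glycolysis, rose by 1.23 (edgeR adjusted p = 0.000382) and Gys1, glycogen synthase, by 1.0. Ugp2, which makes UDP-glucose, fell by 1.52 but was higher with the GC trend removed (0.72).

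Of 18 genes of the HIF machinery 3 were higher and 4 lower (median 0.07), against the same 21.1% and 26.8% of all tested genes. Hsp90aa1, a chaperone of the HIF alpha subunit among many clients, fell from 4273 to 341 CPM in the means (−3.65, edgeR adjusted p = 2.68e-05). Cul2 and Eloc, parts of the ubiquitin ligase that removes hydroxylated HIF, fell by 2.85 and 1.46, whereas Vhl, its substrate receptor, rose by 0.60 and the hydroxylase Egln2 by 0.63. With the GC trend removed, Hsp90aa1 and Cul2 were still lower (−2.55 and −0.97) and Eloc and Egln2 were not called. A list of other hypoxia-responsive genes had 15 higher and 13 lower of 52 tested, with a median of −0.03, shares near those over all tested genes. Its members with the smallest p were Igfbp3, an IGF-binding protein (−2.79), Zwilch, a kinetochore protein (−1.54), P4ha2, a collagen prolyl hydroxylase (1.43), and Lox, which cross-links collagen (−2.70). Zwilch was not called with the GC trend removed (−0.35), and Igfbp3, P4ha2 and Lox still were (−3.05, 1.08 and −1.63).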

How the data were processed

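RNA-seq libraries came from a stranded mRNA kit and were read as read pairs, per the labels' protocols. Per the submitters' processing notes the tools were HISAT2 and MultiQC and the build GRCm39, without versions. Not given in the sources used here are the counting tool, its strand setting and the annotation. Raw counts of 22030 rows and FPKM of 21879 rows were deposited by the authors. Columns were matched to the 6 libraries by name.

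Counts were tested in edgeR 4.0.16 (R 4.3.3; filterByExpr, TMM, robust quasi-likelihood, two-sided) over 13067 genes holding 99.95% of the counts, with Benjamini-Hochberg adjustment over all of them. CPM values are TMM-scaled, and the SE is the log2 fold change over the square root of F. Composition offsets used a loess of span 0.3 and degree 1 on GC content, alone or with length, of a single GENCODE M21 (GRCm38) transcript per gene, known for 99.8% of tested genes. Other settings were DESeq2 1.42.0, RLE, upper-quartile or no factors, a filter of 5 CPM in 3 libraries or none, limma 3.58.1 on log2(FPKM + 1) and log2(FPKM + 0.1), a replicate block and each library left out. The fits were also run on simulated counts without a GC trend or an outlying library. That run cannot show how the fits behave under these features of the data. Replicates differed by more than counting noise in every pair. Deviations from the group means had correlations of −0.08, 0.04 and 0.05 between libraries of equal replicate number. Because control replicate 2 stood apart and shapes the deviations of all controls, these values cannot settle whether equal numbers pair the libraries.

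Members are named in full. From each other list the called genes with the smallest p, up to 4, are named, and further ones were added after their values were seen. Members, lists, tests and ratios were chosen with earlier results of these data known.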

Additional observations from a re-analysis of the deposited data

How the results depend on the processing

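Of 663 values of members under 20 other settings, 632 kept the sign of the reported fold change and 31 did not, 11 of them with a call on either side and 20 with none. In 60 values a call was gained without a change of sign and in 29 it was lost. Pfkp, Tpi1, Pgam1, Ldha, Pdk1, Egln1, Bnip3, Car9 and Ndrg1, 9 of the 20 called rows, were called in every setting that tested them, and 16 were called whichever library was left out. Car9 was tested in 17 of the 20 settings, and where low counts were filtered only because of its knockdown counts. With single libraries left out, between 14 and 29 rows were higher (29 without control replicate 2) and 2 lower each time. The shares of all genes were then 12.3% to 35.1% higher and 20.1% to 36.5% lower. Lower rows numbered 0 by edgeR with the GC offset and 0 with the replicate block and GC offset (2 and 1 at an unadjusted p under 0.05), and 2 by DESeq2. With the replicate block alone, 18 rows were higher and 2 lower (18.3% and 24.7% of all genes), Pkm lost its call (adjusted p = 0.0628) and Slc16a3 gained it (0.0184). With a call involved, direction changed for Pkm (−0.11 with the GC offset, −0.12 with GC and length, −0.11 with the block and GC), Bnip3l (0.38, 0.33 and 0.38) and, with GC and length, Eno2 (−0.34). With the GC offset and without control replicate 2, a setting chosen after seeing the data, values were −0.11 for Pkm, 0.47 for Bnip3l, −0.26 for Eno2 and −0.33 for Vegfa. There Bnip3l was called higher, Eno2 and Vegfa were called lower, and Pkm was not called. Hif1a kept its direction there and was called lower (−1.08). In that setting 23 rows were higher and 3 lower, where 33.7% and 27.9% of all genes were. Without a call on either side, direction changed for Gapdh in 6 settings (−0.35 to −0.04), Adm in 6 (0.05 to 0.21), Slc2a1 in 3 (−0.16 to −0.04), Vegfa in 3 and Eno2 in 2. The cause was not tested. Depth limits Car9, Adm, Aldoc and the second Aldoa identifier, all near or under 1 CPM.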
